A study of Mus musculus with 8 samples.

Results

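The 8 genes described here are Apln, Aplnr, Cxcl12, Cxcr4, Ackr3, Esm1, Fabp4 and Dach1, which code for ligands, receptors and markers of growing coronary vessels. They were taken by name from the 55291 gene symbols of the count table, with earlier results of these data known, and each had reads in this tissue. The data are bulk RNA-seq of ventricles dissected at embryonic day 10.5 (E10.5) of mouse development, a stage chosen because mutant and control hearts could not be told apart by eye. There were 4 libraries of each genotype, numbered 1 to 4 within it. Every embryo carried floxed Pkn2 alleles (Pkn2 fl/fl) on a C57BL/6N background. The conditional knockout (cKO) embryos also carried the XMLC2-Cre transgene, and the controls were Cre-negative. XMLC2-Cre recombines in cardiomyocytes, so endothelial cells were not targeted. The labels do not say whether a library is 1 embryo or a pool, and the p-values therefore measure the spread between these libraries.

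Coronary vessels grow into the ventricular wall as sprouts from the sinus venosus and from the endocardium, the inner lining of the chambers. Apelin, coded by Apln, is a peptide released by endothelial tip cells that acts on the receptor APJ, coded by Aplnr, on venous and sprouting endothelium. CXCL12 is a chemokine that signals through CXCR4, while ACKR3 binds the same chemokine without classical G protein signaling and takes it up. Esm1 (endocan) marks tip cells and angiogenic endothelium, Fabp4 is a fatty acid carrier of capillary endothelium, and Dach1 codes for a transcription factor that promotes arterial growth of coronary endothelium.

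The stretch of 250 bases upstream of the transcription start is shown for the genes of the apelin and CXCL12 ligands and for Esm1, the members with the largest fold changes between genotypes. Sequences are those of RefSeq in GRCm38.p6, read 5′ to 3′ on the strand of the gene, in lower case, with GC boxes (GGGCGG) and SOX core motifs (ACAAT) on either strand in capitals.
Apln, chrX:48034854-48035103, minus strand: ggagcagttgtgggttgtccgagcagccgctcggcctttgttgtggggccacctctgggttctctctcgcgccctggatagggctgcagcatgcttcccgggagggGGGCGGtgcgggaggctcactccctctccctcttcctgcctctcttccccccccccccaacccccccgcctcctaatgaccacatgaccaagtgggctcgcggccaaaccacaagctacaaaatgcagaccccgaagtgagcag
Cxcl12, chr6:117168285-117168534, plus strand: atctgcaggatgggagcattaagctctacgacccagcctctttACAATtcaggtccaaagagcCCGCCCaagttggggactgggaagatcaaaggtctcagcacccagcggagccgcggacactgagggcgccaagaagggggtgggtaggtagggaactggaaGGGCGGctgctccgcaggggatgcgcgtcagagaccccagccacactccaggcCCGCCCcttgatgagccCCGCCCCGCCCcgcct
Esm1, chr13:113209409-113209658, plus strand: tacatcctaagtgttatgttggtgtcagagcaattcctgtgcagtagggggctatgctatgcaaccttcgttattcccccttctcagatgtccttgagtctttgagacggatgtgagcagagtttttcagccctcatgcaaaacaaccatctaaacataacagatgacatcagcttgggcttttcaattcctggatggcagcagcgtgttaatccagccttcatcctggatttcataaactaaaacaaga

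The Apln stretch was 65.2% G or C, the Cxcl12 stretch 64.4% and the Esm1 stretch 44%. Cxcl12 held 5 GC boxes, at 187, 86, 33, 16 and 11 bases before the start, of which the last pair overlap, and 1 SOX core at 207 bases. Apln held 1 GC box, at 144 bases, and the Esm1 stretch held neither motif. A GC box occurred in 32.7% and a SOX core in 27.7% of 32851 promoters of this length. Cxcr4 and Ackr3, coding for the CXCL12 receptors, held 3 and 1 GC boxes and 2 and 1 TATA boxes (TATAAA, in 12.4% of promoters), and Dach1 held no match. The core of the hypoxia response element (ACGTG, in 16.6% of promoters) and an ETS core (CCGGAA, in 12.03%) were not found in any of the 6 stretches at hand, which lack Aplnr and Fabp4. These matches describe letters only, and no binding was measured.

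Libraries held 47559845 to 56660938 counts assigned to genes. Pkn2 itself was at 83.1, 77.6, 79.6 and 84.3 CPM (counts-per-million, scaled by trimmed mean of M-values) in cKO libraries 1 to 4 and at 133, 139, 152 and 153 CPM in control libraries 1 to 4. Its log2 fold change was −0.83 (SE 0.060, edgeR quasi-likelihood adjusted p = 7.67e-06), which leaves 56.3% of the control mean. The tissue also holds cells without Cre activity, and the floxed segment is a single exon of Pkn2 while counts are per gene. The source of the remaining reads was not tested. Cardiomyocyte markers (12 genes) summed to 52032 to 54530 TPM (transcripts-per-million, a level per length) in cKO and 52202 to 55732 in control libraries and endothelial markers (20 genes) to 1061 to 1466 and 834 to 980 TPM.

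None of the 8 genes passed the threshold of an adjusted p of 0.05, and 0 passed it together with a 1.5-fold change. Of all 26820 genes tested, 230 (0.858%) passed the first threshold, 138 (0.515%) higher and 92 (0.343%) lower in cKO, and 98 (0.365%) passed both. At an unadjusted p under 0.05 there were 2 members, Cxcl12 and Esm1, against 12.8% of all genes, and DESeq2 called 1 of the 7 members to which it gave an adjusted p, Cxcl12, against 5.46% of genes. Fold changes were positive for 6 members and negative for 2, with a median of 0.19 on the log2 scale, against 49.8% positive over all genes. Cxcl12, the ligand, was the nearest to a call. The highest fold change belonged to Esm1 and rested on a single cKO library. For none of the 8 genes were all cKO libraries on one side of all controls, a separation seen in 6.91% of genes.

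**Figure D1:**
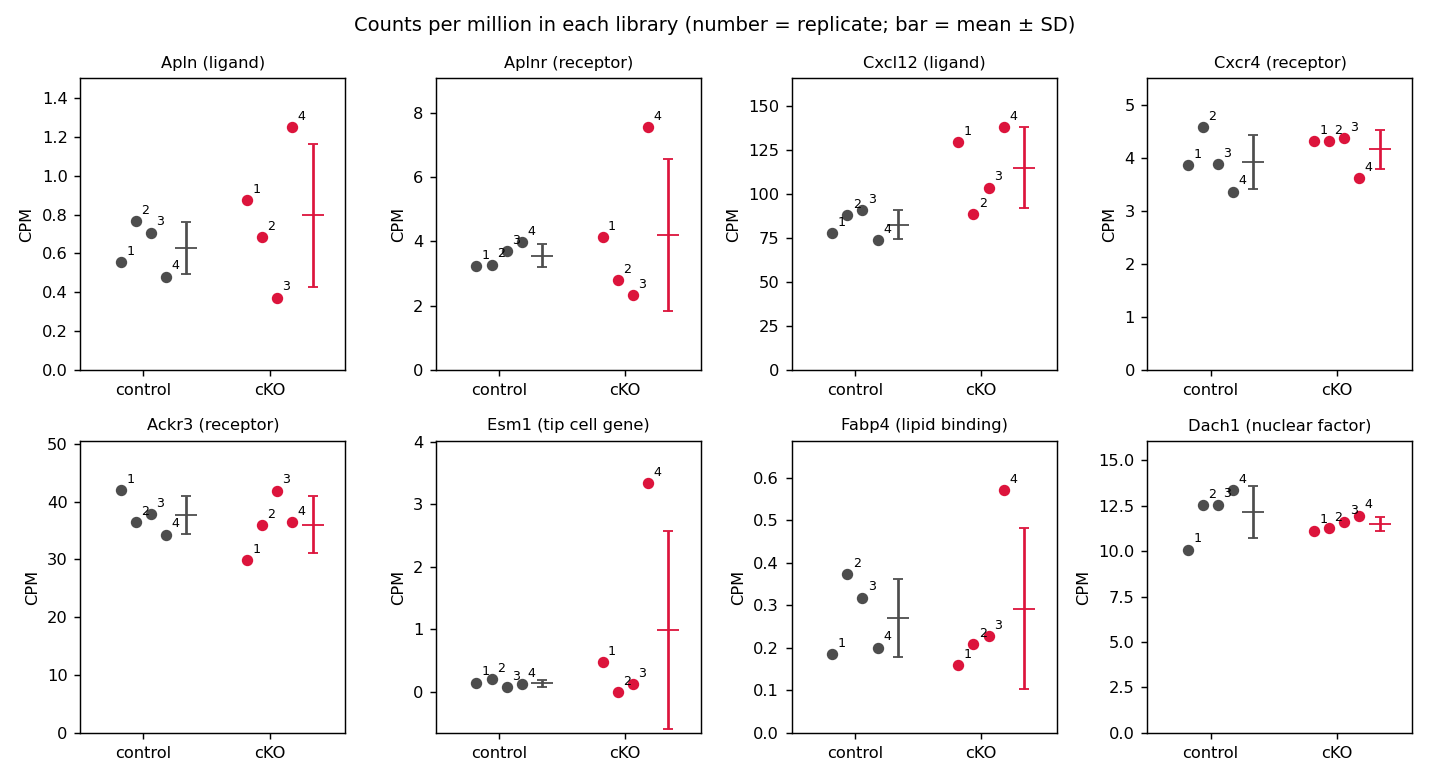
Each panel plots one gene, with its level in CPM on the vertical axis and points for the 4 cKO and the 4 control libraries (horizontal bars, mean; error bars, SD). Cxcl12 lies between 88.3 and 138 CPM in cKO and between 73.6 and 91.0 in control libraries, and 1 cKO library lifts the Esm1 mean, at 3.34 CPM.

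Cxcl12 (ENSMUSG00000061353, chromosome 6, 117168535 to 117181367, plus strand, GRCm38) was the most abundant member. The cKO libraries held 6525, 4249, 4992 and 7721 reads of it, or 129, 88.3, 104 and 138 CPM. Controls held 4206, 4235, 5149 and 3676 reads, or 77.7, 87.8, 91.0 and 73.6 CPM. So 3 of 4 cKO libraries lay above every control, and cKO 2 lay within the control range. Means were 115 ± 22.9 and 82.5 ± 8.19 CPM (SD, n = 4 each). The log2 fold change was 0.48 (SE 0.11, 95% confidence interval 0.24 to 0.71, edgeR quasi-likelihood adjusted p = 0.0592), so that the interval of the gene alone left out 0 while the adjusted value missed the threshold over all genes. DESeq2 gave 0.48 with an adjusted p of 0.00312. The call also appeared in edgeR when cKO 2 (adjusted p = 0.0108, with 1.07% of genes called) or cKO 3 (adjusted p = 0.0326, with 2.82% of genes called) was left out. It appeared too with upper quartile scaling (adjusted p = 0.0493, 0.988% called), with a replicate block (0.0484, 380 genes called) and without a filter on low counts (adjusted p = 0.000461, 2.62% called). The block used the replicate numbers, which were not otherwise read as pairs. The other 14 of 20 alternative fits did not call Cxcl12 (edgeR or limma adjusted p = 0.0562 to 0.362). Among them were limma-voom (0.0890) and edgeR without cKO 1 (0.204), cKO 4 (0.118), control 1 (0.196) or control 4 (0.203).

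Neither of the CXCL12 receptors was near a call, and the ligand and its receptors were not tested against each other. Cxcr4 (ENSMUSG00000045382, chromosome 1, 128588199 to 128592290, minus strand), the signaling receptor, stood at 4.33, 4.32, 4.37 and 3.62 CPM in cKO and at 3.86, 4.58, 3.89 and 3.37 CPM in control libraries. Its groups overlapped almost whole, at 4.16 ± 0.359 and 3.92 ± 0.501 CPM (SD, n = 4 each). The log2 fold change of 0.08 had an interval of −0.22 to 0.39 (edgeR adjusted p = 0.884), which leaves out a 1.5-fold change either way. Ackr3 (ENSMUSG00000044337, chromosome 1, 90203980 to 90216751, plus strand), the scavenging receptor, measured 29.8, 36.0, 41.9 and 36.4 CPM in cKO libraries. Controls had 42.0, 36.5, 37.8 and 34.3 CPM. Only cKO 1 lay under every control, and the log2 fold change was −0.06 (interval −0.26 to 0.13, edgeR adjusted p = 0.848), with a sign that turned to 0.022 without cKO 1.

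The balance of ligand to receptor can be read per length within each library, in TPM. The ratio of Cxcl12 to Cxcr4 was 19.9, 13.1, 15.7 and 25.5 in cKO libraries 1 to 4 and 13.2 to 15.5 in controls, so that 3 of 4 cKO libraries exceeded every control, cKO 3 by little. Cxcl12 to Ackr3 gave 4.90, 2.74, 2.80 and 4.33 in cKO and 2.07 to 2.80 in control libraries, where cKO 3 exceeded the highest control only past the printed digits. The ratio of Ackr3 to Cxcr4, receptor to receptor, ran from 4.06 to 5.89 in cKO and from 4.81 to 6.37 in controls. Libraries cKO 1 and cKO 4 thus carried the highest ratios of the ligand to either receptor.

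Apln (ENSMUSG00000037010, chromosome X, 48025146 to 48034853, minus strand), the apelin ligand, was counted at 44, 33, 18 and 70 reads in cKO and 30, 37, 40 and 24 reads in control libraries. These are 0.873, 0.686, 0.373 and 1.25 CPM against 0.554, 0.767, 0.707 and 0.481 CPM. Both the highest and the lowest value were in cKO libraries, with means of 0.795 ± 0.366 and 0.627 ± 0.133 CPM (SD, n = 4 each). The log2 fold change was 0.35 with a wide interval of −0.35 to 1.05 (edgeR adjusted p = 0.756), and was 0.046 without cKO 4. The coefficient of variation of its CPM was 46.1% in cKO and 21.1% in control libraries, where counting error alone would give 16.4%. No difference was detected, and the interval leaves room for one of either sign.

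Aplnr (ENSMUSG00000044338, chromosome 2, 85136225 to 85139923, plus strand), its receptor, was likewise more spread in cKO, at higher counts. The cKO libraries gave 208, 135, 113 and 423 reads, or 4.13, 2.81, 2.34 and 7.55 CPM, while controls gave 175, 158, 210 and 199 reads, or 3.23, 3.28, 3.71 and 3.99 CPM. Libraries cKO 1 and cKO 4 lay above every control, and cKO 2 and cKO 3 lay below every control. The mean difference therefore says little of any library. It came to a log2 fold change of 0.25 (SE 0.27, interval −0.33 to 0.83, edgeR adjusted p = 0.795), and to −0.19 without cKO 4. The coefficient of variation of the CPM values was 56.0% in cKO against 10.2% in controls, where counting error alone would give 7.03%. The ratio of Aplnr to Apln, in TPM, was 3.48 to 5.67 in cKO and 3.58 to 7.99 in control libraries.

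Esm1 (ENSMUSG00000042379, chromosome 13, 113209659 to 113218098, plus strand), the tip cell marker, was near the limit of detection in all but 1 library. Reads numbered 24, 0, 6 and 187 in cKO and 8, 10, 4 and 6 in control libraries, or 0.476, 0, 0.124 and 3.34 CPM against 0.148, 0.207, 0.0707 and 0.120 CPM. The count of 0 in cKO 2 allows up to 0.0623 CPM, at 3 counts. Library cKO 4 was the highest, cKO 1 the next, and cKO 2 the lowest of all 8. The fitted log2 fold change of 2.86 (SE 0.98, interval 0.79 to 4.93, edgeR adjusted p = 0.198) became 0.57 (adjusted p = 0.886) without cKO 4.

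Fabp4 (ENSMUSG00000062515, chromosome 3, 10204088 to 10208576, minus strand), the capillary fatty acid carrier, was also rare. Reads numbered 8, 10, 11 and 32 in cKO and 10, 18, 18 and 10 in control libraries, or 0.159, 0.208, 0.228 and 0.571 CPM against 0.185, 0.373, 0.318 and 0.200 CPM. Again cKO 4 was the highest of all, and the other 3 cKO libraries lay in the lower part of the control range or under it. The log2 fold change was 0.13 (SE 0.46, interval −0.86 to 1.12, edgeR adjusted p = 0.953), with −0.43 when cKO 4 was left out, −0.01 without control 1, and −0.0055 in a fit to log2(TPM + 0.1).

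Dach1 (ENSMUSG00000055639, chromosome 14, 97786853 to 98169543, minus strand) codes for the transcription factor of arterial growth. It varied least of the 8 genes among cKO libraries, though in controls Ackr3, Cxcl12 and Aplnr varied less. It read 11.1, 11.3, 11.6 and 11.96 CPM in cKO and 10.1, 12.5, 12.6 and 13.4 CPM in control libraries. All cKO libraries lay between control values, and their coefficient of variation was 3.22% against 11.7% in controls. The log2 fold change of −0.08 (SE 0.097, interval −0.28 to 0.13, edgeR adjusted p = 0.821) had the tightest bounds but that of Ackr3.

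**Figure D2:**
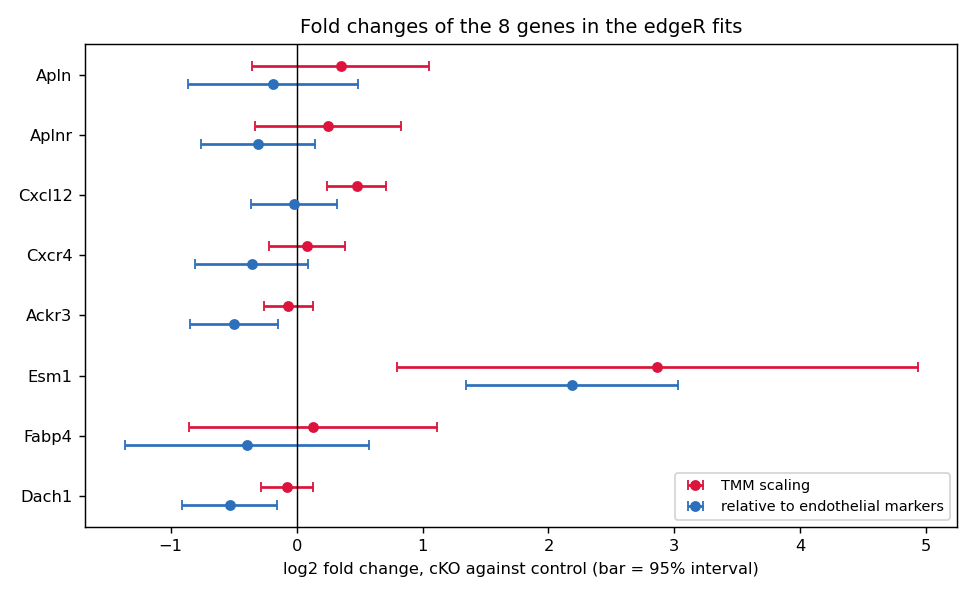
Log2 fold changes (cKO minus control) of the 8 genes on the horizontal axis with 95% confidence intervals as bars, in red with TMM scaling and in blue relative to 20 endothelial markers. With TMM scaling only the intervals of Cxcl12 (0.24 to 0.71) and Esm1 (0.79 to 4.93) leave out 0, and relative to the markers Cxcl12 lies at −0.019. The blue intervals rest on a spread in effect pooled over genes.

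Per length, the controls ordered the genes as Cxcl12 at a mean of 53.4 TPM, Ackr3 at 21.4, Dach1 at 4.20, Cxcr4 at 3.78, Aplnr at 1.68, Fabp4 at 0.551, Apln at 0.346 and Esm1 at 0.115 TPM. Neighbours in this order overlapped in 2 places, Dach1 with Cxcr4 and Fabp4 with Apln. In cKO libraries the means ran Cxcl12 75.3, Ackr3 20.8, Cxcr4 4.13, Dach1 4.01, Aplnr 2.07, Esm1 0.832, Fabp4 0.596 and Apln 0.442 TPM, with Esm1 placed by cKO 4, which alone had 2.80 TPM. Cxcl12 transcripts thus outnumbered those of either receptor in every library, and the receptor of apelin outnumbered its ligand.

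The cKO libraries differed among themselves, which can be put as each library's log2 CPM minus the control mean. In cKO 4 this difference was 0.97 for Apln, 1.09 for Aplnr, 0.74 for Cxcl12, 4.33 for Esm1 and 1.03 for Fabp4. Library cKO 1 followed in Apln (0.48), Aplnr (0.22), Cxcl12 (0.65) and Esm1 (1.61), but not in Fabp4 (−0.59). Libraries cKO 2 and cKO 3 had Aplnr at −0.33 and −0.59 and Cxcl12 at 0.10 and 0.33. Cxcr4, Ackr3 and Dach1 stayed between −0.33 and 0.16 in all 4 cKO libraries, with no such order.

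**Figure D3:**
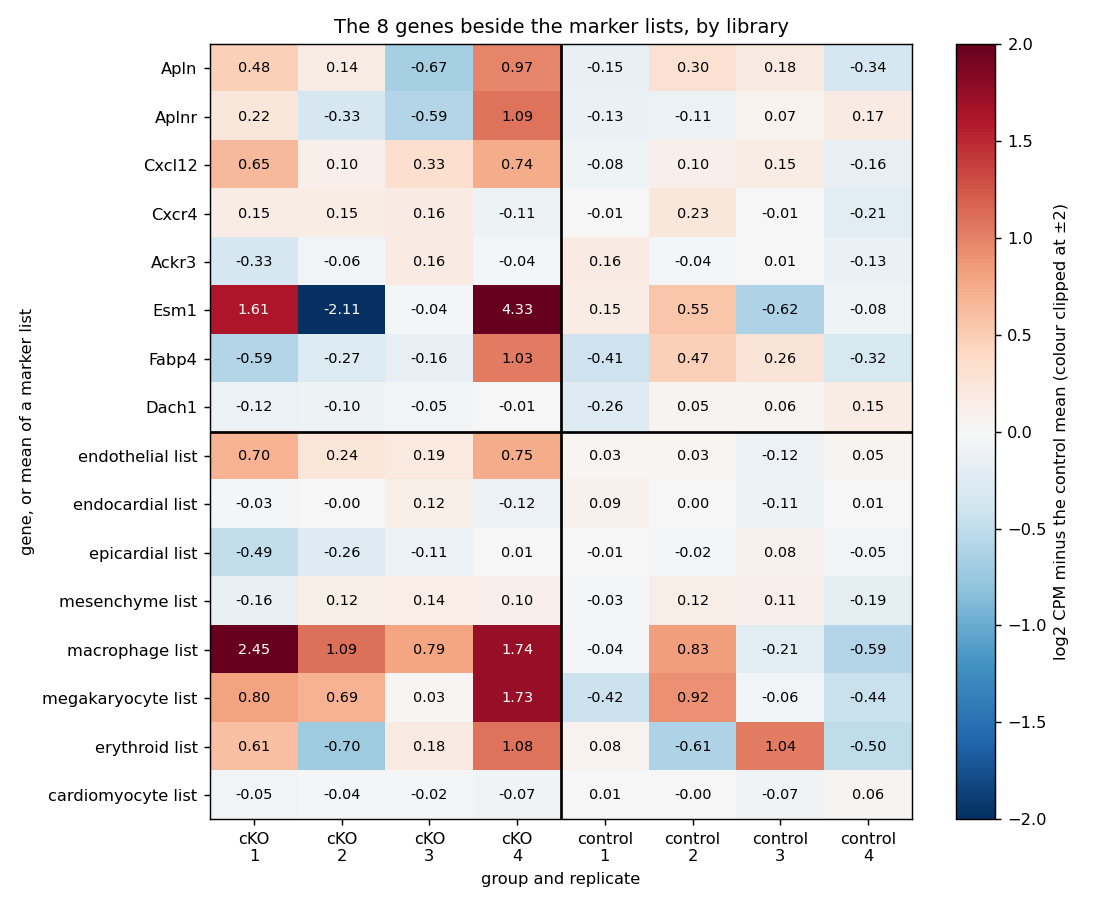
Difference of each library's log2 CPM from the control mean for the 8 genes, with the scores of the cell type marker lists on the same log2 scale, for each of the 8 libraries (columns; red above, blue below, color clipped at 2). In cKO 4 and cKO 1 Apln, Aplnr, Cxcl12 and Esm1 are above the control mean together with the endothelial score (0.75 and 0.70).

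On average, markers of endothelium were highest in cKO 4 and cKO 1, as were Apln, Aplnr, Cxcl12 and Esm1. Cxcr4, Ackr3, Dach1 and Fabp4 did not share this order. In cKO 2 and cKO 3 the marker means lay above every control, while Aplnr lay below every control (−0.33 and −0.59). Cxcl12 was above the control mean there (0.10 and 0.33). Whether the genes follow these markers across libraries was not tested. The mean difference of the 20 endothelial markers was 0.70, 0.24, 0.19 and 0.75 in cKO 1 to 4 and −0.12 to 0.05 in controls, all 20 had positive fold changes, and 7 rose past the threshold (median 0.42). In bulk tissue, fewer cells of a type and less RNA per cell cannot be told apart, and the same holds for more. The 7 endocardial markers scored −0.12 to 0.12 in cKO and −0.11 to 0.09 in control libraries, with 4 of 7 higher and 2 past the threshold (191 to 200 against 160 to 188 TPM summed).

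Of the blood cell lists, the macrophage list had 2 genes past the threshold and the others 0, and the scores of the groups overlapped in all 3 lists. The macrophage list scored 2.45, 1.09, 0.79 and 1.74 in cKO 1 to 4 and −0.59 to 0.83 in controls (13 of 13 higher, 2 past the threshold, 68.0 to 97.9 against 42.4 to 59.1 TPM summed), and the megakaryocyte list 0.80, 0.69, 0.03 and 1.73 against −0.44 to 0.92 (6 of 6 higher, 0 past the threshold, 58.7 to 193 against 36.6 to 96.7 TPM). Erythroid markers scored 0.61, −0.70, 0.18 and 1.08 against −0.61 to 1.04 (8 of 8 with positive fold changes, 0 past the threshold, 3847 to 13422 against 4279 to 12579 TPM), and in each of these lists cKO 4 and cKO 1 were the highest of the cKO libraries. The part of these cells in the differences of the 8 genes was not tested.

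Lists of other cell types moved little or the other way. Cardiomyocyte markers had 4 of 12 higher (median −0.04), epicardial markers 1 of 7 (median −0.16, 209 to 296 against 263 to 290 TPM), and mesenchymal markers 5 of 8 (median 0.11, 235 to 270 against 215 to 286 TPM), each with 0 past the threshold. Pharyngeal and second heart field markers were nearly absent, with 3 of 5 tested higher and Hoxb1 at 0 (1.72 to 3.56 against 2.31 to 2.83 TPM). Hepatic markers were at 4.13 to 8.31 in cKO and 4.74 to 36.4 TPM in control libraries, with 0 of 7 tested higher and Alb not tested. Apln lies on chromosome X, and the Y-linked Ddx3y was present in all 8 libraries at 47.0 to 60.9 CPM while Xist was at 0.0801 to 2.24 CPM.

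To ask whether a member differed from endothelial genes at large, the fit was repeated with each library scaled to the mean of the 20 endothelial markers. On this scale the median of all genes shifted by −0.45, and 30.6% of all genes were called lower and 0.649% higher. In this fit the spread between libraries was in effect pooled over genes. Its SEs, intervals and p-values therefore do not measure each gene's own spread. The median of the 8 genes was −0.33. Cxcl12 stood at −0.019 (SE 0.17, interval −0.36 to 0.32, edgeR adjusted p = 0.947), so a difference of the ligand from the endothelial markers was not detected within that interval.

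Apln at −0.19 (adjusted p = 0.718), Aplnr at −0.30 (adjusted p = 0.318), Cxcr4 at −0.36 (adjusted p = 0.218) and Fabp4 at −0.39 (adjusted p = 0.582) also passed no threshold in this edgeR fit. Ackr3 and Dach1 were called lower than the endothelial markers, at −0.49 (SE 0.18, edgeR adjusted p = 0.0288) and −0.53 (SE 0.19, edgeR adjusted p = 0.0291), close to the shift of all genes. Either call was lost without cKO 1 (adjusted p = 0.150 and 0.107), without cKO 4 (0.0917 and 0.0879) and without any 1 of the controls (0.0628 to 0.119 for Ackr3 and 0.0575 to 0.123 for Dach1). In these 6 fits the fold changes were −0.35 to −0.55 for Ackr3 and −0.44 to −0.62 for Dach1, and calls over all genes numbered 392 to 2114, against 8382 of 26820 with every library. Esm1 was called higher, at 2.19 (SE 0.43, edgeR adjusted p = 9.96e-05), and at 0.050 (adjusted p = 0.972) without cKO 4, which left 0 of the 8 genes past the threshold. With TMM scaling the SE of Esm1 was 0.98.

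Among 23 partners of the 2 ligand systems, which take in processing enzymes, G proteins, arrestins, receptor kinases and the related adrenomedullin receptor, 22 were tested and Cxcl11 had no reads. Their fold changes were 11 positive and 11 negative with a median of −0.01, and 3 passed the threshold, 1 higher and 2 lower. Grk5, a kinase that desensitizes G protein-coupled receptors, fell from 44.2 ± 2.55 to 25.8 ± 3.01 CPM (SD, n = 4 each, log2 fold change −0.78, SE 0.080, edgeR adjusted p = 0.000427). Mme, the membrane endopeptidase neprilysin, fell from 34.9 ± 6.84 to 22.3 ± 3.15 CPM (log2 fold change −0.65, SE 0.12, edgeR adjusted p = 0.0225). Calcrl, the adrenomedullin receptor of endothelium, rose from 51.6 ± 4.66 to 67.7 ± 6.72 CPM (log2 fold change 0.39, SE 0.077, edgeR adjusted p = 0.0249). In none of these 3, named because they passed the threshold, did the groups overlap, a separation seen in 6.91% of all genes.

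Grk5 kept its call in edgeR whichever library was left out. A limma fit to log2(TPM + 1), which called 2 genes in all, called neither these 3 (adjusted p = 0.127 for Grk5, 0.368 for Mme and 0.245 for Calcrl) nor Pdgfb, Cd34, Flt1 and Jag2 of the lists described next (0.243 to 0.322). Mme lost it without cKO 1 (adjusted p = 0.0790) and without control 2, 3 or 4 (0.0509, 0.0909 and 0.107), and Calcrl without cKO 1 (0.0761) and without control 1, 2 or 3 (0.0921, 0.0515 and 0.0943). Calcrl is itself enriched in endothelium, and relative to the endothelial markers it was at −0.07 (edgeR adjusted p = 0.807). With TMM scaling the peptide and co-receptor genes around Calcrl did not pass, with Adm at −0.17 (adjusted p = 0.794), Ramp2 at 0.25 (adjusted p = 0.163) and Ramp3 at 0.44 (adjusted p = 0.728). Apela, coding for the other ligand of the apelin receptor, was at −0.21 (edgeR adjusted p = 0.730).

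Sprouting genes leaned upward as a list. Of 20 genes of angiogenic sprouting, 18 had positive fold changes (median 0.40), close to the median of 0.42 of the endothelial markers, and 3 rose past the threshold. Pdgfb, the tip cell signal to pericytes, rose from 2.39 ± 0.417 to 9.74 ± 5.90 CPM (log2 fold change 2.03, SE 0.34, edgeR adjusted p = 0.00893). Cd34, a surface protein of sprouting endothelium that blood progenitors also carry, rose from 73.6 ± 3.37 to 124 ± 35.5 CPM (log2 fold change 0.76, SE 0.13, edgeR adjusted p = 0.0136). Flt1, a decoy receptor for VEGF, rose from 69.9 ± 6.89 to 98.8 ± 19.6 CPM (log2 fold change 0.50, SE 0.11, edgeR adjusted p = 0.0484), with groups that overlapped. Pdgfb and Cd34 lost the call without control 1 (adjusted p = 0.0660 and 0.0673) or control 4 (0.0566 for both), and Flt1 without cKO 1 (0.164), cKO 4 (0.0859) or any 1 of the controls (0.0784 to 0.153). In limma-voom Pdgfb and Flt1 had adjusted p = 0.0699 and 0.0797, and Flt1 had 0.0605 in edgeR on the genes kept by filterByExpr. Relative to the endothelial markers Pdgfb was at 1.45 (edgeR adjusted p = 7.03e-08) and Flt1 at 0.01 (edgeR adjusted p = 0.964).

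Of 12 genes of arterial and venous identity, 11 were positive (median 0.16) and 1 rose past the threshold. This was Jag2, a Notch ligand, at 21.8 ± 2.82 against 15.5 ± 1.18 CPM (log2 fold change 0.50, SE 0.095, edgeR adjusted p = 0.0214), which lost the call without cKO 1 (0.0719) or without control 1, 3 or 4 (0.0776, 0.0853 and 0.0958). The largest fold change of the list belonged to Notch4, an endothelial Notch receptor, at 0.57 (SE 0.16, edgeR adjusted p = 0.120), with 0.70 (adjusted p = 0.0285) without cKO 3, 0.38 (adjusted p = 0.251) without cKO 4 and 0.58 (adjusted p = 0.00225) with no filter on counts.

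In the lists around Fabp4 and Dach1, 0 genes passed the threshold in edgeR. At an unadjusted p under 0.05 there were 4 and 0, against 12.8% of all genes. Of 10 genes of fatty acid uptake, 3 were positive (median −0.07), and Cd36, a fatty acid transporter, had 25.0 ± 3.38 against 31.7 ± 3.04 CPM (log2 fold change −0.34, SE 0.093, edgeR adjusted p = 0.0999). It passed with DESeq2 (adjusted p = 0.0261), in edgeR with no filter on counts (0.0153) and in edgeR without cKO 4 (0.0368). Of the 9 genes of the Dach and Eya network, which with sine oculis homeobox factors act together in transcription, 5 were positive (median 0.04). Eya1 had the largest fold change among those with at least 1 CPM, −0.40 (SE 0.19, edgeR adjusted p = 0.396).

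**Figure D4:**
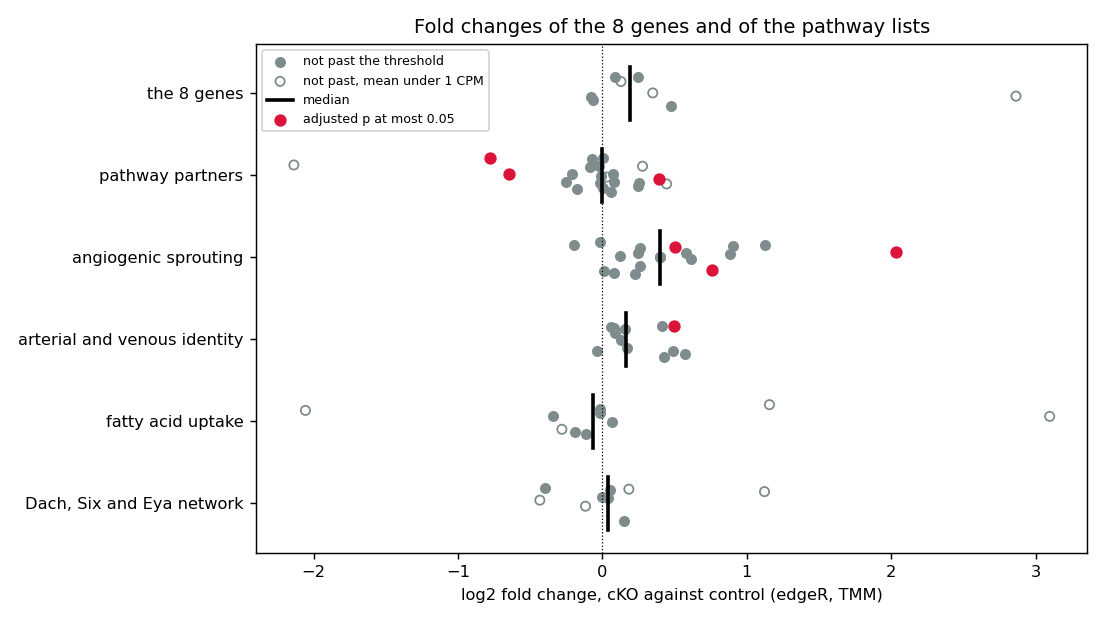
Log2 fold changes (cKO minus control, horizontal axis) of every tested gene of the 8 members and of the 5 pathway lists, 1 point a gene (red, adjusted p at most 0.05; open, a mean under 1 CPM), with the median of each list as a bar. The sprouting list has its median at 0.40, the partners at −0.01 and the members at 0.19.

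The genes most like each member were sought among 14302 genes with a mean of at least 1 CPM, by Pearson's r of log2 CPM over the 8 libraries after each group's mean was subtracted. These values describe 8 points that share their libraries, and the top 3 for each member lay between 0.924 and 0.991. Being the highest of so many, they are high in part through the choice, and shared regulation was not tested. For Apln they were Stxbp5, Nedd4l and Usp22 and for Aplnr St6gal1, Gna13 and Prnp, with Gna13, a G protein alpha subunit, being also in the list of partners. Cxcl12 was followed by Hif3a, Raph1 and Cflar, Cxcr4 by A530017D24Rik, Gm5577 and Sh3bp2, and Ackr3 by Stk19, Mpc2 and Clstn3. Esm1 was followed by Pvr, Ctsa and Cd63, Fabp4 by Irs2, Igdcc4 and 4930481A15Rik, and Dach1 by Zhx1, 2610021A01Rik and Pm20d2.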

How the data were processed

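The deposited count table holds raw read counts per gene and sample, and the authors' second table gives TPM per gene. Per the labels, poly(A) RNA (TruSeq v2) was sequenced on a NovaSeq X Plus and run through nf-core/rnaseq. The submitters' processing notes name FastQC, Trim Galore 0.6.7, HISAT2 2.2.1, StringTie 2.2.1, featureCounts, DESeq2 and GRCm39. The strand setting is not given in the sources used here. The coordinates in the TPM table are those of GRCm38: 85.8% of 37780 gene starts lie within 1000 bases of it and 3.26% within 1000 bases of GRCm39.

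Counts were tested with edgeR 4.0.16 (R 4.3.3, TMM, quasi-likelihood F test, 8 or more counts a gene over all libraries, genotype as the only term), with Benjamini-Hochberg adjustment over 26820 genes. CPM are scaled by TMM. The log2 CPM use a prior count of 2. A second fit scaled each library to 20 endothelial markers. Alternatives used DESeq2 1.42.0, limma 3.58.1, other scalings and filters, a replicate block, log2 Xist CPM as a covariate, hemoglobin genes left out, log2 TPM with a pseudocount of 1 or 0.1, and each library left out. On simulated counts of 25985 genes the test found 61% of 100 genes changed 1.5-fold and 94.9% of 99 changed 2-fold, with 6.18% of its calls false. These changed genes were drawn from those with a mean of at least 1 CPM. The rates therefore do not cover Apln, Esm1 and Fabp4, with means of 0.711, 0.561 and 0.280 CPM.

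Named are the 8 genes, Pkn2, the genes of each pathway list past the threshold or with the largest fold change (at least 1 CPM), and the 3 genes most like each member. Adm, Ramp2, Ramp3 and Apela were added after their values were seen. The members and lists were chosen with earlier results of these data known. Replicate libraries differed beyond counting noise (chi-square per degree of freedom 11.0 to 35.3). Intervals on counts of 0 cover counting error only.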

Additional observations from a re-analysis of the deposited data

Results flagged for a closer look

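In 3 members 1 cKO library lay far from the other 3 of its group, by Dixon's ratio at the 95% level, and each time it was cKO 4. Cxcr4 was lowest there at 3.62 CPM, with the others at 4.32 to 4.37 CPM. Esm1 was highest there at 3.34 CPM, with the others at 0 to 0.476 CPM, and Fabp4 was highest there at 0.571 CPM, with the others at 0.159 to 0.228 CPM. Among 38 groups of 4 values examined, chance alone would mark about 1 in 20.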

How the results depend on the processing

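Of 155 values of the members' fold changes under other settings, 143 kept their sign and their side of the threshold, 7 passed it and 5 changed sign. The changes of sign, all without a call, were Aplnr −0.19 without cKO 4 (range −0.19 to 0.45 with a library left out), Fabp4 −0.43 without cKO 4 and −0.013 without control 1 (range −0.43 to 0.34) and −0.0055 on log2(TPM + 0.1), and Ackr3 0.022 without cKO 1 (range −0.14 to 0.022). Relative to endothelial markers Cxcl12 turned to 0.11 with endocardial markers added to the reference, 0.022 without cKO 2 and 0.078 without control 3 (range −0.087 to 0.078). Members past the threshold numbered 0, but 1 with DESeq2, 1 with upper quartile scaling and 2 with no filter on counts (Cxcl12 and Esm1), and 0 to 1 with a library left out. Those past both thresholds numbered 0, but 1 with no filter and 0 to 1 with a library left out. Partners past the threshold numbered 3, but 0 on log2(TPM + 1), 0 on log2(TPM + 0.1), 1 where a mean of 1 TPM was asked for, and 1 to 4 with a library left out. The genes of the other 4 lists numbered 4, but 10 with DESeq2, 7 with log2 Xist CPM as covariate, 7 with upper quartile scaling, 19 with no filter, 2 with limma-voom, 0 in each of the 3 TPM fits, and 0 to 18 with a library left out. Members past the threshold relative to endothelial markers numbered 3 where 8382 of all 26820 genes were called, and 0 to 3 with a library left out, where 392 to 11660 of all genes were called. The cause of these changes was not tested. Over all genes, calls numbered 230, with 867 by DESeq2, 168 by limma-voom, 878 with no filter, 2, 5 and 35 in the TPM fits, and 67 to 744 with a library left out. Apln, Fabp4 and Esm1 had 0 to 187 reads a library. At the mean count over all 8 libraries the counting error was 16.4%, 26.1% and 18.1%, beside a spread of 46.1%, 64.8% and 161% between cKO libraries. For Esm1 that mean was lifted by cKO 4, and the counting error was larger in controls, with 4 to 10 reads each.

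Same-numbered cKO and control libraries did not deviate together (r = −0.192, −0.0301, 0.00558 and −0.140 over 14302 genes), and 0 of them correlated best with their own number, so the numbers were not read as pairs. Each cKO library and its best-matched control matched each other under other numbers. These were cKO 1 with control 3, cKO 2 with control 4, cKO 3 with control 1 and cKO 4 with control 2. No fit used these matches as pairs, and their source was not tested. The replicate block used the replicate numbers. With the replicate block 1 member passed (Cxcl12, adjusted p = 0.0484 in edgeR), 11 genes of the other 4 lists passed, with Notch4 among them (adjusted p = 0.0413), and 380 genes passed in all. Relative to endothelial markers, 2 members passed with the block, without Esm1, and so did 10408 of all 26820 genes.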
